A study of Mus musculus with 12 samples.

Results

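The locus described here is the gene desert on mouse chromosome 11 that separates the potassium channel genes Kcnj16 and Kcnj2 from Sox9. Its members are the interactions whose anchors both have their midpoint in chr11:110800000-113700000 (mm10), and the genes Sox9, Kcnj2 and Kcnj16. In Hi-C, 7165 of 10237359 interactions in ESC and 8200 of 10708066 in NCC lay in this 2.9 Mb region. In FGFR1 HiChIP the numbers were 1461 of 1921126 and 1981 of 2388222, and in CTCF HiChIP they were 655 of 882215 and 746 of 841945.

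The study mapped chromatin contacts by Hi-C, and by HiChIP with antibodies against FGFR1 and CTCF, in mouse ESC and in NCC. ESC were E14Tg2A embryonic stem cells kept with LIF, and NCC were neuronal committed cells made from the same line with 1 uM retinoic acid for 48 h without LIF. HiChIP is Hi-C followed by immunoprecipitation, so its read pairs are enriched for contacts near the protein, here the growth factor receptor FGFR1 in its nuclear form or the insulator protein CTCF. The 2 replicates of each cell type and assay are merged in 1 table of read pairs per pair of anchors, so no difference below has a replicate check. All intervals are 95% intervals that cover counting error only. The tables hold contacts and no expression, so the labelled cell types could not be checked against marker genes, and a contact made in fewer cells cannot be told apart from a weaker contact in every cell.

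Sox9 encodes a transcription factor with an HMG box that is needed for cartilage, testis, neural crest and glia, and its distal enhancers are spread through the desert. Kcnj2 and Kcnj16 encode inward rectifier potassium channels, which help to set the resting potential of excitable and epithelial cells. Topologically associated domains are stretches of chromatin that contact themselves more than their neighbours, and their borders often carry CTCF sites, whose strand sets the direction in which a loop is formed. The Kcnj2 and Sox9 domains are a textbook case, because duplications that span the border between them put desert enhancers next to Kcnj2 and change limb development.

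The region held 14 matches to the CTCF consensus in 12 of its 72 whole 40 kb bins, while 16.7% of the 63993 bins of the genome held 1 or more. The consensus has 12 bases, with 4 positions that allow either of a pair of bases, and was searched on both strands. The sites nearest to the border, to Sox9 and to the dips of contacts are shown, each read 5′ to 3′ on its own strand with the consensus in capitals. The first lies on the Kcnj2 side of the border (chr11:111445979-111445990, minus strand), and the next pair lies just inside the Sox9 side (chr11:111532656-111532667, minus strand, and chr11:111537842-111537853, plus strand). The fourth stands beside Sox9 (chr11:112831803-112831814, minus strand), in the lincRNA gene 4933434M16Rik. The fifth stands at an inner dip of contacts in the lincRNA gene 2610035D17Rik (chr11:113172601-113172612, plus strand). The last lies in Slc39a11 (chr11:113648358-113648369, plus strand), just past the far end of the Sox9 domain, and is labelled by that end.
Kcnj2 side of the border: atgtaataaCCACCAGAGGGCgaaagagat
Border, minus strand: tccatgtgaCCACTAGATGGCagagtagtg
Border, plus strand: aacatgttaCCAGCAGGTGGCagtccagta
Beside Sox9: tttcagggcCCACCAGATGGCaaggaggat
Inner dip: acacacgcaCCACTAGGTGGCgacagagcc
Far end of the Sox9 domain: accgctgcgCCACCAGGGGGCgcgctgtgc
The pair inside the border points in opposite directions, the minus site towards Kcnj2 and the plus site towards Sox9. Anchors over these sites differed between the tables. The plus site at the border lay in a Hi-C anchor with 123 read-pair ends in ESC and in a wider one with 531 in NCC, and in CTCF HiChIP anchors with 6 ends in ESC and 19 in NCC. The site just past the far end of the Sox9 domain lay in no CTCF HiChIP anchor in ESC and in one with 80 ends in NCC. The 40 kb bin that holds it had 146 CTCF HiChIP ends in ESC and 116 in NCC. The minus site at the border, the site beside Sox9 and the site at the inner dip lay in no HiChIP anchor of either antibody in either cell type. A consensus match describes the letters and is not a measured binding site.

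The annotation (GENCODE, GRCm38) lists 22 genes in the region, of which 9 are protein coding. Kcnj16 (chr11:110968033-111027968) and Kcnj2 (chr11:111066164-111076821) lie at one end and Sox9 (chr11:112782224-112787760) far to the other side, all on the plus strand, with 1705 kb between the end of Kcnj2 and the start of Sox9. No other protein-coding gene lies between them. Beyond Sox9 follow Slc39a11 (a zinc transporter), Sstr2 (a somatostatin receptor), Cog1 (a Golgi complex subunit), Fam104a, D11Wsu47e and Cpsf4l. The other 13 entries are 6 lincRNA genes, 5 processed pseudogenes, 1 pseudogene and the processed transcript BC006965, which starts beside Sox9 on the opposite strand.

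Depth sets how finely these contacts can be read. The tables hold 20745652 and 21228099 read pairs in Hi-C (ESC and NCC), 2662606 and 3203872 in FGFR1 HiChIP, and 1218098 and 1056437 in CTCF HiChIP on chromosomes 1 to 19 and X. The region took 17938 and 20829 of them in Hi-C, 2158 and 2828 in FGFR1 HiChIP, and 938 and 998 in CTCF HiChIP. Scaled to these totals, NCC over ESC was 1.13 (1.11 to 1.16) in Hi-C, 1.09 (1.03 to 1.15) in FGFR1 HiChIP and 1.23 (1.12 to 1.34) in CTCF HiChIP. The region as a whole thus held slightly more read pairs in NCC in each assay, and Hi-C alone is deep enough for single bins.

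Domains were placed from the share of read pairs that cross each 40 kb edge, of all read pairs between different bins within 400 kb of it, in the summed Hi-C of both cell types. The lowest edge between Kcnj2 and Sox9 lay 454 kb from the start of Kcnj2 and 1262 kb from that of Sox9, at 111520000, and is called the border. There 14.1% of read pairs crossed, and 9.67% of 60297 edges in the genome had a lower share. The right end of the Sox9 domain at 113640000 had 15.7%, with 13.5% of edges lower. The left end of the Kcnj2 domain at 110960000 had 28.4%, above the median edge of 23.5%, so that end is the lowest edge within its search window and not a dip. The Kcnj2 domain so defined is 560 kb long, and the Sox9 domain is 2120 kb long and has an inner dip at 113160000 (19.1%), which was chosen after its value was seen.

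The Sox9 domain held more contacts in NCC than in ESC, and the Kcnj2 domain held fewer in Hi-C. Contacts are given as observed over expected (O/E), the read pairs between different 40 kb bins over the genome-wide mean for bins at the same distance in the same table. Within the Sox9 domain, Hi-C had 8095 read pairs in ESC (O/E 1.10) and 10719 in NCC (O/E 1.45). Within the Kcnj2 domain, it had 683 in ESC (O/E 0.496) and 366 in NCC (O/E 0.264). The Kcnj2 domain was thus below its distance expectation in both cell types and the Sox9 domain above it. NCC over ESC was 1.32 (1.28 to 1.36) for the Sox9 domain and 0.533 (0.468 to 0.606) for the Kcnj2 domain.

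Both HiChIP assays moved like Hi-C in the Sox9 domain and not in the Kcnj2 domain. In the Sox9 domain, FGFR1 HiChIP had 954 and 1351 read pairs (O/E 1.06 and 1.28), a ratio of 1.201 (1.105 to 1.306). CTCF HiChIP had 324 and 369 there (O/E 0.875 and 1.08), a ratio of 1.24 (1.06 to 1.44). All 3 ratios of the Sox9 domain had an interval above 1. In the Kcnj2 domain, FGFR1 HiChIP had 81 and 125 read pairs (O/E 0.493 and 0.652), a ratio of 1.32 (0.992 to 1.77). CTCF HiChIP had 59 and 63 there (O/E 0.867 and 1.01), a ratio of 1.16 (0.803 to 1.69). Both of these intervals include 1, and neither overlaps the Hi-C interval.

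Anchors were called separately in each table, and their coverage moved with these ratios. In Hi-C, anchors covered 204 kb of the Kcnj2 domain in ESC (64 anchors) and 149 kb in NCC (47 anchors), with 0.382 and 0.304 read pairs per covered kb after scaling each table to 1000000 read pairs. In the Sox9 domain they covered 906 and 1048 kb, with 0.732 and 0.808 on the same scale. Per covered kb the Kcnj2 domain was thus still lower in NCC and the Sox9 domain still higher. These values count all read pairs inside a domain, also those within 1 bin, so their size cannot be set against the ratios above. Among interactions whose anchors overlap an anchor of the other cell type, NCC over ESC was 0.770 (0.656 to 0.903) for the Kcnj2 domain and 1.19 (1.15 to 1.23) for the Sox9 domain. A further expectation, from distance and coverage, also used the read pairs of both bins with all other bins up to the region's length away. With it, both ratios turned, to 1.34 and 0.873. That setting removes any change that raises or lowers all contacts of a bin together.

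**Figure D1:**
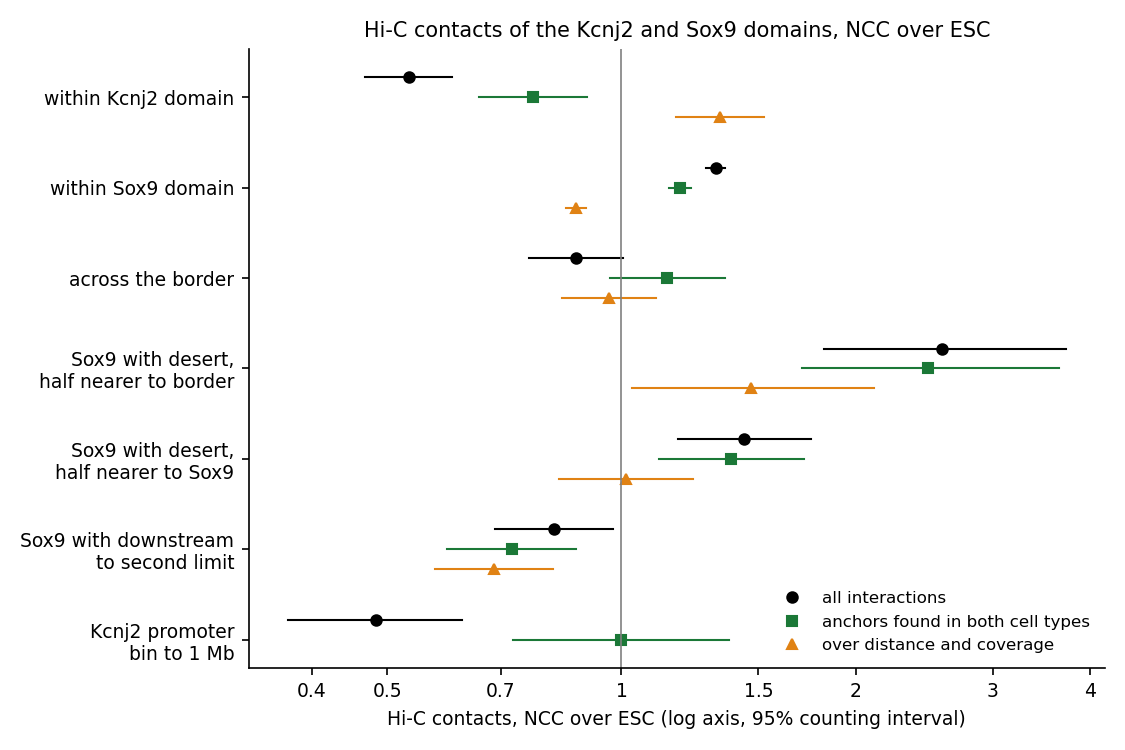
NCC over ESC of Hi-C contacts (horizontal log axis) for the domains and for the Sox9 and Kcnj2 promoter bins (rows), with all interactions (black circles), with anchors found in both cell types (green squares) and over an expectation from distance and coverage (orange triangles; not run for the last row). Lines are 95% counting intervals. Sox9 with the desert nearer to the border lies above 1 in all 3, and Sox9 with the stretch downstream to the inner dip lies below 1 in all 3. The ratios of both whole domains lie on both sides of 1.

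Windows of the same length across the genome give the scale of these values. Over all read pairs between bins, the Kcnj2 domain had a scaled ratio of 0.524, and 11.8% of 59327 windows of its length were lower. Of those windows, 24.5% were at least 20% lower in NCC with an interval below 1, so the low value of the Kcnj2 domain is a common one. The Sox9 domain had 1.29, and 6.26% of 62300 windows of its length were higher. Of those windows, 7.33% were at least 25% higher with an interval above 1, and the Sox9 domain was among them. The HiChIP ratios of the Sox9 domain were more common, since 31.2% of windows of its length were higher in FGFR1 HiChIP and 25.4% in CTCF HiChIP.

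Within the Sox9 domain the ratio was not even. Between the border and the inner dip, a stretch that holds Sox9 and the desert before it, Hi-C O/E was 0.819 in ESC and 1.06 in NCC (ratio 1.296, 1.246 to 1.348). From the inner dip to the right end, which is mostly Slc39a11, it was 2.01 and 2.94 (1.46, 1.39 to 1.54). Across the inner dip it was 1.71 and 2.01 (1.17, 1.09 to 1.26). The gene-bearing end was the densest in contacts in both cell types and had the highest of the 3 ratios. FGFR1 HiChIP differed there, with 1.31 (1.18 to 1.45) before the inner dip and 1.05 (0.868 to 1.26) after it.

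Contacts across the border between the Kcnj2 and Sox9 domains were below the expectation from distance in both cell types. Hi-C had 443 read pairs across it in ESC (O/E 0.486) and 386 in NCC (O/E 0.425), a ratio of 0.874 (0.761 to 1.00). FGFR1 HiChIP had 70 and 84 (ratio 0.980, 0.705 to 1.37) and CTCF HiChIP 28 and 35 (1.32, 0.782 to 2.26). None of the 3 intervals excludes 1, and with anchors found in both cell types the Hi-C ratio was 1.14 (0.966 to 1.36). Relative to contacts inside the domains, those across the border were at 0.485 in ESC and 0.336 in NCC in Hi-C, where the denominator is mostly the Sox9 domain. In FGFR1 HiChIP they were at 0.608 and 0.491, and in CTCF HiChIP at 0.667 and 0.721. The low level across the border depends on the expectation. With distance and coverage in it, Hi-C across the border was at O/E 1.97 (1.79 to 2.16) in ESC and 1.90 (1.71 to 2.09) in NCC, above 1 and above the Sox9 domain at 1.19 and 1.04. The Kcnj2 domain was then at 2.33 and 3.13.

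The crossing share at the border itself was 15.9% in ESC (117 of 737 read pairs) and 12.4% in NCC (97 of 783), a ratio of 0.780 (0.608 to 1.00), which turned to 1.19 (0.872 to 1.63) with anchors found in both cell types. In NCC Hi-C this was the lowest edge between the genes, while in ESC the lowest lay 80 kb further into the desert, at 15.8%. The ESC minimum was flat, so these edges do not differ beyond counting error. In HiChIP, the lowest edge lay at the border in NCC with both antibodies and in ESC with CTCF, and 40 kb towards Kcnj2 in ESC with FGFR1.

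Edges on the 2 sides of the border changed in opposite directions. From -200 to -40 kb on the Kcnj2 side, 5 edges had a lower crossing share in NCC, with ratios from 0.711 to 0.752. From 80 to 200 kb on the Sox9 side, 4 edges had a higher one, with ratios from 1.33 to 1.43. In the whole region, 5 of 73 edges were at least 25% higher in NCC with an interval above 1, where 7.82% of all edges in the genome were, and 6 were at least 20% lower with an interval below 1, where 9.4% were. These counts are near the background, and neighbouring edges share most of their read pairs. In ESC Hi-C, the bin from 160 to 200 kb on the Sox9 side, chr11:111680001-111720000, had no read-pair end at all.

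**Figure D2:**
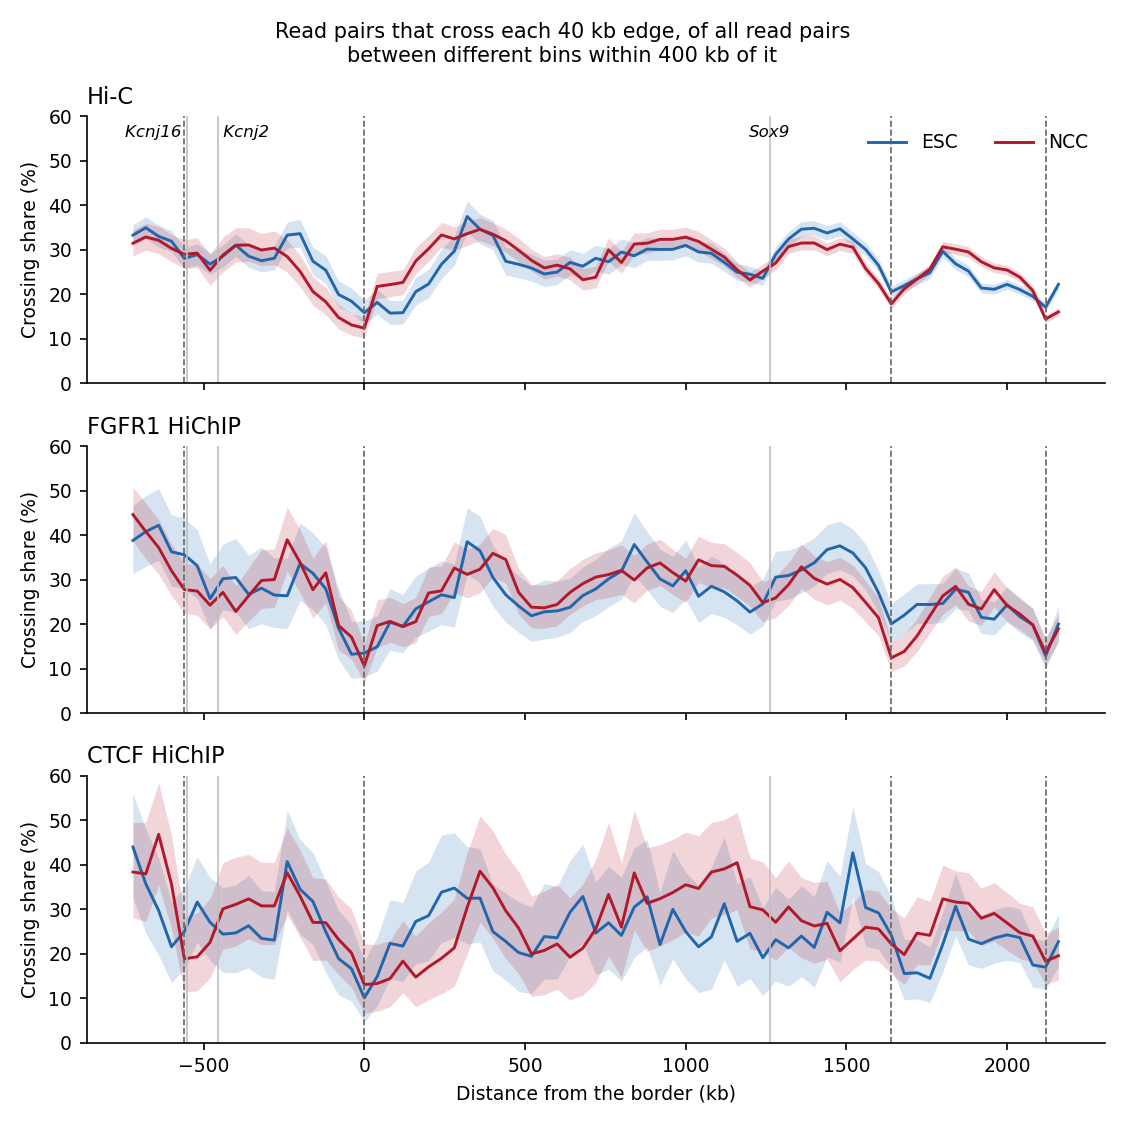
Share of read pairs that cross each 40 kb edge (vertical axis, %) against distance from the border (kb) in Hi-C, FGFR1 HiChIP and CTCF HiChIP, ESC in blue and NCC in red, with 95% Clopper-Pearson intervals as bands. Dashed lines mark the left end, the border, the inner dip and the right end, and grey lines the gene starts; all 6 curves dip at or beside the border, and in Hi-C the NCC curve is lower just before it and higher just after it.

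Single bin pairs showed where the Sox9 domain gained. In Hi-C, 246 pairs of 40 kb bins held at least 20 read pairs in ESC and NCC together. Of these, 45 were at least 1.5 times higher in NCC with an interval above 1, where 9.48% of bin pairs in the genome were, and 17 were lower, where 9.86% were. The Sox9 domain held 44 of the 45 higher pairs among its 214, and the Kcnj2 domain held none of them and 5 lower pairs among its 12. Past the inner dip, 23 of 65 pairs were higher and none lower, with a median ratio of 1.498. Among the pairs that passed the rule, the highest O/E in NCC joined chr11:113160001-113200000, the bin after the inner dip with its plus-strand CTCF match, to chr11:113600001-113640000, the last bin of the domain, with 26 read pairs in ESC (O/E 8.25) and 52 in NCC (O/E 16.8). The same inner-dip bin was joined to the first bin of the domain beside the border, chr11:111520001-111560000, by 6 read pairs in ESC (O/E 17.8) and 15 in NCC (O/E 42.5). This was the highest O/E of all 246 pairs in both cell types, at a distance of 1640 kb, and its ratio of 2.44 (0.896 to 7.69) did not pass the rule. A pair this long reaches the minimum of 20 read pairs only with a very high O/E, so its rank follows from that minimum. O/E takes distance and not coverage into account. The bins of the pair at 16.8 had 2019 and 1955 Hi-C ends in NCC, where the median bin of the region had 575.

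A paired t-test of ESC against NCC over 100 pairs of 4 kb bins within each bin pair, modelled on the t-test that the study's methods apply at other bin sizes, called fewer of these pairs, 14 higher and 9 lower (5.69% and 3.66%, against 4.58% and 4.81% in the genome). With anchors found in both cell types, 22 of 206 pairs were higher, which is 10.7% against 7.02% in the genome. FGFR1 HiChIP had 6 pairs with enough read pairs, and 1 of them was higher in NCC. No genome-wide share is given for this assay, so the count cannot be judged against a background. The pair joined the neighbouring bins chr11:113440001-113480000 and chr11:113480001-113520000 in Slc39a11, with 2 read pairs in ESC and 24 in NCC. Anchor coverage of the first of these bins moved the same way, with 21 FGFR1 HiChIP ends over 4.14 kb in ESC and 189 over 14.8 kb in NCC. CTCF HiChIP had none with enough read pairs.

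**Figure D3:**
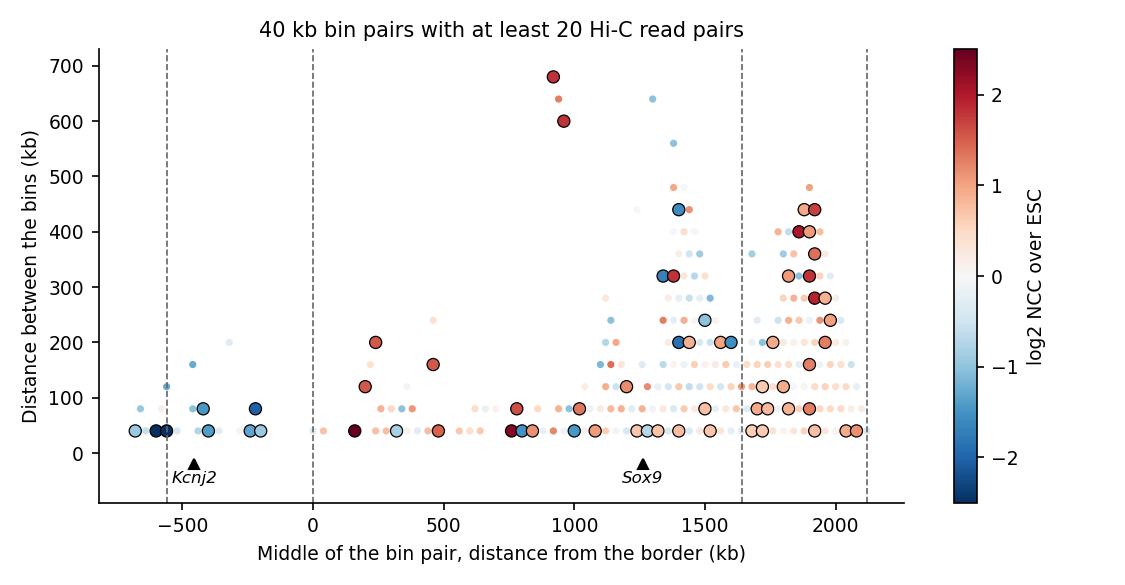
Pairs of 40 kb bins with at least 20 Hi-C read pairs, placed by the middle of the pair (horizontal axis, kb from the border) and by the distance between the bins (vertical axis, kb), coloured by log2 NCC over ESC, with values beyond 2.5 and the pair with no ESC read pair drawn at the end of the scale; 1 pair, 1640 kb long, lies above the panel. Large outlined points passed the rule; 44 of the 45 higher pairs lie in the Sox9 domain, and those 600 and 680 kb long end in the Sox9 promoter bin.

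Sox9 contacted its own domain more than expected in both cell types, and the part of the desert far upstream more so in NCC. Its promoter bin (chr11:112760001-112800000) had 594 Hi-C read pairs with the rest of its domain in ESC (O/E 1.97) and 712 in NCC (O/E 2.36), a scaled ratio of 1.17 (1.05 to 1.31). The bin itself had nearly equal numbers of read-pair ends, 1332 and 1406, and anchors covered 24.4 and 25.6 kb of it. The ratio of ends in the promoter bin as a whole was 1.03 (0.956 to 1.11). Over an expectation from distance and coverage the ratio with the domain turned, to 0.885, so these contacts did not rise beyond the coverage of the bins. The desert was split at its middle bin after the values were seen.

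The 16 bins of the desert nearer to the border, 640 to 1240 kb from Sox9, had 45 read pairs with its promoter bin in ESC (O/E 2.87) and 119 in NCC (O/E 7.59). NCC over ESC was 2.58 (1.82 to 3.73), and 13 of the 16 bins were higher in NCC after scaling. With anchors found in both cell types the numbers were 41 and 103 (ratio 2.48, 1.71 to 3.65). Over an expectation from distance and coverage the ratio was 1.47 (1.03 to 2.11). Of 14135 protein-coding genes with enough read pairs over the same distances upstream, 1.45% had a higher ratio than Sox9 and the median was 0.944. At least 25% higher with an interval above 1 were 5.21% of those genes, and Sox9 was among them. The stretch was set after the Sox9 values were seen, and the other genes had no such choice. The rank of Sox9 is therefore favoured by the choice and tests nothing.

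The 15 bins nearer to Sox9, from -600 to -40 kb, had 174 read pairs in ESC (O/E 1.252) and 256 in NCC (O/E 1.84), a ratio of 1.44 (1.18 to 1.75). Here the ratio over distance and coverage was 1.01, so these contacts were higher in NCC by about as much as that expectation. FGFR1 HiChIP had 17 and 45 read pairs with them (2.20, 1.23 to 4.10) and CTCF HiChIP 5 and 16 (3.69, 1.29 to 12.9). Over distance and coverage these HiChIP ratios were 1.01 (0.564 to 1.87) and 0.947 (0.331 to 3.30). With the bins nearer to the border, FGFR1 HiChIP had 5 and 11 (1.83, 0.586 to 6.71) and CTCF HiChIP 5 and 3 (0.692, 0.107 to 3.56), too few to show a difference.

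Downstream of Sox9, contacts up to the inner dip were lower in NCC in 40 kb bins. Past the inner dip they did not differ beyond counting error. Between Sox9 and the inner dip, Hi-C had 291 read pairs in ESC (O/E 2.37) and 244 in NCC (O/E 1.98), a ratio of 0.819 (0.688 to 0.975). The ratio was 0.722 (0.596 to 0.873) with anchors found in both cell types and 0.686 (0.576 to 0.816) over distance and coverage. In 80 kb bins it was 1.03, so the lower value depended on bin size. From the inner dip to the right end, Hi-C had 84 and 93 (1.08, 0.797 to 1.47). The difference between upstream and downstream was not tested on its own, but the interval of each upstream ratio lies above that of the stretch from Sox9 to the inner dip.

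Among bins with at least 20 read pairs, those that Sox9 contacted most fell into 2 places. Far bins below this minimum could be higher. Those at -1240 and -1120 kb, near the border, had a summed O/E of 11.8 and 11.5 from 13 and 15 read pairs. Of the 16 bins at least 120 kb away with 20 read pairs or more, the highest O/E in summed Hi-C was in the neighbouring bins 360 and 400 kb downstream, in the lincRNA gene 2610035D17Rik beside the inner dip. They held 48 and 36 read pairs with Sox9 in ESC (O/E 11.4 and 9.92) and 35 and 38 in NCC (O/E 8.49 and 10.7). Together they had 84 in ESC and 73 in NCC, a ratio of 0.849 (0.612 to 1.18). This contact was thus above its distance expectation in both cell types, with no difference beyond counting error. The 2 bins also had many Hi-C ends, 1814 and 1461 in ESC and 1482 and 2019 in NCC. The median bin of the region had 533.5 and 575. No O/E over distance and coverage is given for them.

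The next 3 bins lay at -680, -640 and -600 kb, around the lincRNA gene Gm11680 in the desert (chr11:112080001-112200000). They held 5, 6 and 5 read pairs with Sox9 in ESC and 18, 15 and 18 in NCC. Each of the 3 was higher in NCC, though the interval of the middle bin includes 1. Together they had 16 (O/E 3.07) and 51 (O/E 9.90), a ratio of 3.12 (1.75 to 5.85), while the ratio of all ends in these bins was 1.33 (1.24 to 1.43). With anchors found in both cell types the ratio was 3.22. The bins were named by read pairs summed over both cell types, and most of these came from NCC. Both ratios thus describe bins picked from the same read pairs, and they are no independent test of a difference. FGFR1 HiChIP had 1 and 6 read pairs there, and CTCF HiChIP had none in either cell type, which allows up to 3.

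**Figure D4:**
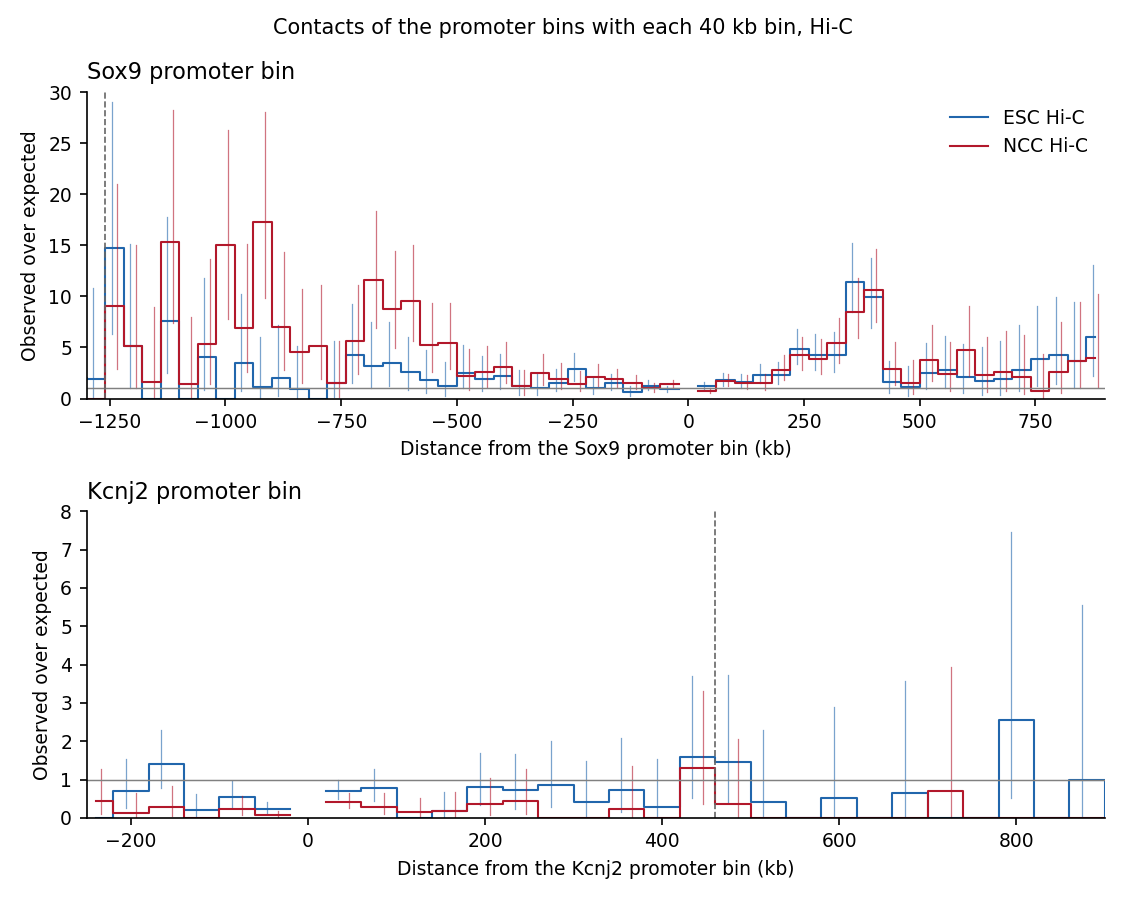
Hi-C contacts of the Sox9 (top) and Kcnj2 (bottom) promoter bins with each 40 kb bin, as observed over expected (vertical axis) against distance from the promoter bin (horizontal axis, kb), ESC in blue and NCC in red. Vertical lines are exact Poisson 95% intervals of bins with at least 1 read pair (the panels cut the tallest), the grey line marks 1 and the dashed line the border; Sox9 has a peak near 400 kb in both cell types and higher NCC values over much of the desert beyond -500 kb.

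Single anchor pairs of Sox9 pointed to the downstream place, and no listed pair joined Sox9 to the bins at -680 to -600 kb. Among interactions at least 200 kb long, those with the highest scores in ESC Hi-C included the Sox9 anchor (chr11:112775263-112791297) with chr11:113152090-113162125 and with chr11:113130088-113149171, with 12 read pairs each. In NCC Hi-C, the Sox9 anchor (chr11:112775007-112788266) with chr11:113163341-113169474 had 16. The highest score in NCC was 17, between chr11:113170688-113187308, the anchor over the CTCF match at the inner dip, and chr11:113392899-113402655 in Slc39a11. The same inner-dip anchor had 13 read pairs with chr11:113648013-113652748, the anchor over the CTCF match just past the far end. Both matches are on the plus strand, and the match at the inner dip lay in no CTCF HiChIP anchor in either cell type. No HiChIP interaction of this length had more than 3 read pairs.

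Kcnj2 had fewer Hi-C contacts than expected from distance in both cell types, and fewer in NCC. From 40 kb to 1 Mb its promoter bin had 186 read pairs in ESC (O/E 0.617) and 92 in NCC (O/E 0.305), a ratio of 0.483 (0.372 to 0.624). With its own domain it had 101 and 49, and with the Sox9 domain 37 (O/E 1.07) and 14 (O/E 0.403). The ends in the bin were 413 and 185 and the anchors in it covered 7.86 and 2.87 kb. With anchors found in both cell types the ratio to 1 Mb was 0.998, so the lower number was not seen there, and over distance and coverage the ratio with its own domain turned to 1.53. The anchor over the start of Kcnj2 itself was the same in both Hi-C tables (chr11:111064722-111067595), with 229 ends in ESC and 185 in NCC.

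CTCF HiChIP ran the other way at Kcnj2. Its promoter bin had 5 read pairs to 1 Mb in ESC and 21 in NCC, a ratio of 4.84 (1.78 to 16.4), and 98.9% of 15935 genes had a lower one. With its own domain it had 0 and 13, at least 4.996-fold higher against a floor of 3 read pairs in ESC. FGFR1 HiChIP had 17 and 18 to 1 Mb (0.880, 0.428 to 1.82).

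Kcnj16 lies 98.1 kb before Kcnj2 and its Hi-C contacts changed less. Its promoter bin had 216 Hi-C read pairs to 1 Mb in ESC (O/E 0.716) and 177 in NCC (O/E 0.586), a ratio of 0.801 (0.653 to 0.981). With anchors found in both cell types the ratio was 1.06. With the Sox9 domain it had 35 and 41 (1.14, 0.711 to 1.85), where Kcnj2 had fewer in NCC. Between the Kcnj16 and Kcnj2 promoter bins there were 11 read pairs in ESC (O/E 0.539) and 5 in NCC (O/E 0.243). In CTCF HiChIP the Kcnj16 promoter bin had 13 and 4 read pairs to 1 Mb (0.355, 0.0843 to 1.15), an interval that includes 1. CTCF HiChIP ends in the bin were 44 in ESC and 17 in NCC, over 5.36 and 3.83 kb of anchors. FGFR1 HiChIP had 27 and 33 read pairs to 1 Mb (1.02, 0.592 to 1.76).

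Read pairs between the promoters on the 2 sides of the border were too few to compare. Sox9 and Kcnj2 shared 1 Hi-C read pair in ESC and none in NCC, and Sox9 and Kcnj16 shared 2 and none, while all 4 HiChIP tables had none. For Sox9 and Kcnj2 the expectation was 0.316 and 0.324 read pairs, so a contact several times above expectation could have gone undetected: none in NCC allows up to 9.26 times the expectation. The O/E in ESC was 3.17 (0.0802 to 17.7) for Sox9 and Kcnj2 and 6.74 (0.816 to 24.3) for Sox9 and Kcnj16, and both intervals include 1. The Sox9 promoter bin had 9 read pairs with the whole Kcnj2 domain in ESC (O/E 1.66) and 6 in NCC (O/E 1.08), a ratio of 0.652 (0.191 to 2.05).

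Set against all genes, Sox9 was at 1.16 (1.03 to 1.29) from 40 kb to 1 Mb, with 590 and 698 read pairs. The median of 20179 protein-coding genes was 0.946. None of the 3 genes was at least 25% higher with an interval above 1, where 13.4% of all genes were, and Kcnj2 alone was at least 20% lower with an interval below 1, where 23.6% were; Kcnj16, at 0.801, just missed that size. Of 19 Sox genes, 2 were higher (Sox6 and Sox11) and 6 lower, with a median of 0.935. Of 15 inward rectifier genes, 1 was higher (Kcnj1) and 3 were lower (Kcnj2, Kcnj3 and Kcnj12), with a median of 0.906. Both medians were close to that of all genes.

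The gene whose promoter bin was most like that of Sox9 over the 6 tables, by O/E from 40 kb to 1 Mb, was Ccdc6. Its root mean square difference from Sox9 was 0.111 on the log2 scale, where the median of 7212 genes was 0.629.

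Read-pair ends in HiChIP over those in Hi-C of the same cell type show which bins were enriched in HiChIP ends. Anchors were called separately in each table, and the part of their coverage in these ratios was not tested. Across the region the enrichment was not frequent: in FGFR1 HiChIP, 16 of 71 bins were at least 1.5 times higher than in Hi-C with an interval above 1 in ESC, where 32.5% of all bins were, and 18 of 72 in NCC, where 39.3% were. In CTCF HiChIP, the numbers were 18 of 72 in ESC, where 28.3% of all bins were, and 22 of 72 in NCC, where 31.7% were. The bins were not spread evenly. In NCC CTCF HiChIP, the median ratio was 2.32 in the Kcnj2 domain and 0.753 in the Sox9 domain, and in ESC it was 1.32 and 0.770. In FGFR1 HiChIP, the medians were 1.61 and 0.909 in NCC and 1.04 and 0.916 in ESC. Hi-C ends in the Kcnj2 domain, the denominator, were 5881 in ESC and 3925 in NCC.

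The bins on both sides of the border had higher CTCF ratios in NCC than in ESC. The last bin of the Kcnj2 domain had a CTCF ratio of 1.09 in ESC and 2.97 in NCC, and an FGFR1 ratio of 0.296 and 2.29. Anchors covered 9.88 kb of it in ESC and 16.4 kb in NCC in CTCF HiChIP, and 1.43 and 14.2 kb in FGFR1 HiChIP. In Hi-C they covered 19.1 and 13.0 kb, and the part of coverage was not tested. The first bin of the Sox9 domain, which holds the pair of CTCF matches, had a CTCF ratio of 1.28 in ESC and 1.94 (1.51 to 2.45) in NCC, and an FGFR1 ratio of 0.905 and 0.747. CTCF ends in that bin were 37 in ESC and 77 in NCC, and Hi-C ends were 491 and 798. Anchors covered 7.67 and 14.5 kb of it in CTCF HiChIP and 21.6 and 24.9 kb in Hi-C. In NCC the highest ratios for both proteins were in the bins around chr11:111400001-111440000 on the Kcnj2 side, with 12.5 for FGFR1 and 14.6 for CTCF over 77 Hi-C ends, and at chr11:110920001-110960000, with 7.23 and 15.8 over 66 Hi-C ends. In ESC the highest FGFR1 ratio, 30.96, was at chr11:111600001-111640000 over 37 Hi-C ends, and CTCF had 25 ends where Hi-C had none, at least 142-fold more against a floor of 3. These bins have few Hi-C ends, so their ratios rest on small denominators.

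The Sox9 promoter bin was not enriched. Its FGFR1 ratio was 0.772 (0.641 to 0.924) in ESC and 1.05 (0.908 to 1.21) in NCC, and its CTCF ratio was 0.742 (0.560 to 0.965) and 1.13 (0.888 to 1.42). Both were thus below 1 in ESC and near 1 in NCC. The anchor over the start of Sox9 had 8 CTCF HiChIP ends in ESC and 35 in NCC, and it was also longer in NCC. The Kcnj2 promoter bin had a CTCF ratio of 0.825 (0.499 to 1.29) in ESC and 3.37 (2.22 to 4.94) in NCC, with 20 and 31 CTCF ends. The start of Kcnj16 lay in no CTCF HiChIP anchor in either cell type.

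**Figure D5:**
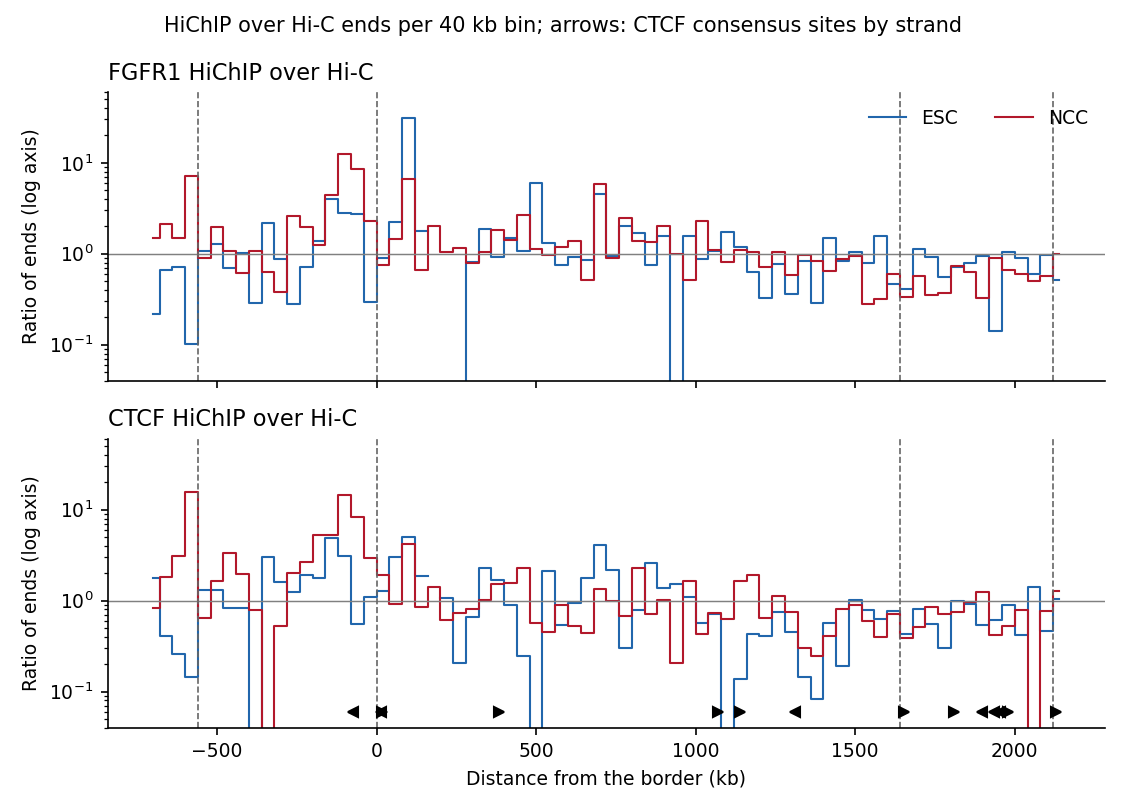
Read-pair ends per 40 kb bin in FGFR1 (top) and CTCF (bottom) HiChIP over Hi-C of the same cell type (log vertical axis, ratio of shares of all ends) against distance from the border (kb), ESC in blue and NCC in red; lines that leave the panel are bins with no HiChIP end. Dashed lines mark the left end, the border, the inner dip and the right end, and arrows the 14 CTCF consensus matches by strand; the NCC ratios are highest just before the border and at the left end.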

How the data were processed

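The deposited scores are raw counts, the number of read pairs that join 2 anchors, in tables that merge both replicates of a cell type and assay. The authors aligned reads to mm10 and removed duplicates with HiC-Pro, then called anchors for each table with hichipper. Anchor calling sets where contacts can be counted. Members, gene lists and region were chosen with earlier results of these data known.

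Interactions on chromosomes 1 to 19 and X were placed at anchor midpoints in 40 kb bins, and read pairs within 1 bin were left out of contact values. NCC was scaled to ESC by total read pairs. Intervals are exact Poisson, Clopper-Pearson or conditional binomial 95% intervals, and those of crossing-share ratios are log-normal. Conditions were compared by ratios with their intervals and by no test, except for a paired t-test of bin pairs as an alternative. The named bins were the 5 with the highest O/E at least 120 kb from a promoter bin with 20 read pairs or more, the named anchor pairs the 5 highest scores at least 200 kb apart, and the named HiChIP bins the 3 highest per table. The setting with anchors found in both cell types, the inner dip and the split of the desert were added after the data were seen. Genes came from GENCODE on GRCm38, and CTCF matches from its sequence. Python 3.11.15, NumPy 2.4.6, pandas 2.3.3 and SciPy 1.17.1 were used, and scripts were tested on simulated data. Other genes with contacts like those of Sox9 are not reported here.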

Additional observations from a re-analysis of the deposited data

Results flagged for a closer look

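Within the Kcnj2 domain, Hi-C contacts were lower in NCC at a ratio of 0.533 (0.468 to 0.606), while FGFR1 HiChIP contacts were at 1.32 (0.992 to 1.77) and CTCF HiChIP contacts at 1.16 (0.803 to 1.69). The assays lie on opposite sides of 1 and their intervals do not overlap, but each is 1 pooled library per cell type and the difference was not tested. The Kcnj2 promoter bin to 1 Mb was flagged for the same reason, with 0.483 (0.372 to 0.624) in Hi-C and 4.84 (1.78 to 16.4) in CTCF HiChIP, and this difference was not tested either. Anchors covered 7.86 kb of that bin in ESC and 2.87 kb in NCC in Hi-C, and 1.63 and 4.38 kb in CTCF HiChIP, so coverage moved in the same directions, and its part in the results was not tested.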

How the results depend on the processing

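No paired analysis was possible because both replicates are merged in each table, which also leaves no replicate to leave out. Over 40 results, 245 values were computed under alternatives. Sox9 with the desert nearer to the border stayed above 1 in all 8, from 1.47 (distance and coverage) to 3.12.

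With an expectation from distance and coverage, Hi-C ratios were 1.34 for the Kcnj2 domain, 0.873 for the Sox9 domain (0.811 in FGFR1 and 0.755 in CTCF HiChIP), 0.885, 1.53 and 1.27 for Sox9, Kcnj2 and Kcnj16 with their own domain, and 1.01 for Sox9 with the desert nearer to it, 0.686 with its downstream side and 0.743 past the inner dip. With anchors found in both cell types, which keep 87.7% and 87.0% of Hi-C read pairs, the region was at 1.10 (FGFR1 1.01, CTCF 1.35), the Kcnj2 domain at 0.770, the Sox9 domain at 1.19, contacts across the border at 1.14, the crossing share at 1.19, Kcnj2 to 1 Mb at 0.998 and with its domain at 0.938, and Kcnj16 to 1 Mb at 1.06, with 22 bin pairs higher. In these tables the direction across the border is therefore not settled: it was 1.16 with the border 1 bin to the right (crossing share 1.197) and 1.44 with scores of at least 2.

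With 20 kb bins, Sox9 to 1 Mb was at 1.02, Sox9 with its domain at 1.07 and Kcnj2 to 1 Mb at 0.638; with 80 kb bins, Sox9 with its downstream side was at 1.03. The region in Hi-C was at 1.16 when scaled to pairs 40 kb to 3 Mb apart, 1.17 with scores of at least 2 and 1.11 without the top 1% of anchors, which gave 1.22 for the Sox9 domain. Bin pairs were 68 higher and 31 lower with at least 10 read pairs, and 14 and 9 by the paired t-test. With 1 mismatch there were 211 CTCF matches. Scores of at least 2 left 0 and 2 (FGFR1) or 0 and 3 (CTCF) read pairs across the border and gave no ratio. Except where a setting's construction shows it, the cause was not tested. Depth limits the HiChIP values, and Hi-C contacts beyond 1 Mb, to a few read pairs per bin.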
